A study of Mus musculus with 16 samples.

Results

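Steroid hormones act on the uterine lining through nuclear receptors and the proteins those receptors recruit, and 8 genes of this machinery are described here. They were chosen by name, as rows of the gene table whose Ensembl identifier carries the symbol Esr1, Pgr, Nr3c1, Ncoa1, Ncoa2, Ncoa3, Ncor1 or Pgrmc1. These genes and the gene lists further below were chosen with earlier results of these data known. Their counts beside the shares of all tested genes are therefore descriptions, not a test of the set. All 8 were found among the 23306 genes of the table, and all 8 were among the 16509 genes that passed the filter on low values (4 or more libraries at 10 or above).

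As background, estradiol binds estrogen receptor alpha, and progestins bind the progesterone receptor. The liganded receptors sit on DNA and recruit coactivators of the SRC family, while corepressor complexes built on NCOR1 remove acetyl marks from histones and keep targets silent. In the uterine epithelium of the mouse, estrogen is known to promote proliferation and progesterone to oppose it, and the progesterone receptor is a well-known regulated gene of both hormones. Medroxyprogesterone acetate (MPA), a synthetic progestin, is known to bind the glucocorticoid receptor as well.

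RNA was sequenced from organoids, spheres of epithelium grown in culture from mouse endometrium. Every culture ran for 2 days before treatment began. Groups under E2/MPA received 10 nM estradiol (E2) for 2 days and then 10 nM E2 together with 1 µM MPA for 4 days. Groups under vehicle received vehicle for 6 days. No group received only E2 or only MPA, so the effects of E2 and of MPA cannot be told apart. The 4 groups of 4 libraries were M13 to M16, Tgfbr2 conditional knockout (cKO) organoids given E2/MPA, M9 to M12, control organoids given E2/MPA, M5 to M8, cKO organoids given vehicle, and M1 to M4, control organoids given vehicle. The cKO label names Tgfbr2 with PRcre+, a Cre recombinase driven from the progesterone receptor gene, and the control label names Tgfbr2 FF, the usual mark of 2 floxed alleles, without Cre. In the PR-Cre mice in common use, Cre is inserted in the Pgr locus. The line is not named in the labels, so for Pgr the loss of Tgfbr2 and the presence of Cre cannot be told apart. Strain and age are not given in the sources used here, and whether replicate libraries come from different mice is not in the labels. P-values therefore measure the spread between these libraries, which may be technical.

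Recovered depth was 14372111 to 20016836 reads per library. The labels call the cells epithelial, and the 10 epithelial markers were read in every library, with a summed level of 127222 to 200814 normalized reads (reads divided by the size factor of the library). The 12 stromal markers also gave reads, and their summed level was 2566 to 36561 in cKO E2/MPA, 1651 to 41282 in control E2/MPA, 1809 to 22773 in cKO vehicle and 851 to 54220 in control vehicle libraries. M16, M12, M8 and M4 were the highest of these groups in that order and are called the stroma-rich libraries below. No stromal marker was at 0 in them, while up to 2 of the 12 (Hand2, Hoxa11, Lum or Thy1) were at 0 in other libraries. The control libraries M9 (19779) and M1 (12459) had the next highest summed stromal level of their groups and are not among the stroma-rich ones. All remaining libraries were at 851 to 4168. Tgfbr2, the deleted gene, was at 3568 to 5526 normalized reads in cKO and 4103 to 7794 in control libraries under E2/MPA, and at 3520 to 5439 in cKO and 4852 to 8054 in control libraries under vehicle. The cKO and control ranges overlapped under both treatments, and neither difference passed the test (limma adjusted p = 0.690 under E2/MPA and 0.833 under vehicle). The stroma-rich library had the highest Tgfbr2 level of its group in every group. Among the other libraries, the vehicle ranges were 3520 to 4304 in cKO and 4852 to 6101 in control, without overlap. Their E2/MPA ranges were 3568 to 4269 in cKO and 4103 to 5152 in control, and these overlapped. The highest of these control values were those of M1 under vehicle and M9 under E2/MPA.

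Of the 8 genes, 3 passed the test for E2/MPA in control organoids, with 2 higher (Ncoa2 and Pgrmc1) and 1 lower (Pgr). The share of all tested genes that passed was 8.9%, with 5.39% higher and 3.51% lower. In cKO organoids 2 of the 8 passed, Ncoa2 higher and Pgr lower, where 4.19% of all tested genes passed, 2.71% higher and 1.48% lower. All tests come from 1 limma fit of log2(value + 1) over all tested genes and 16 libraries, with p-values adjusted by Benjamini-Hochberg and called under 0.05. For cKO against control 0 of the 8 genes passed under either treatment, and 0 passed for a difference in the response to E2/MPA.

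**Figure D1:**
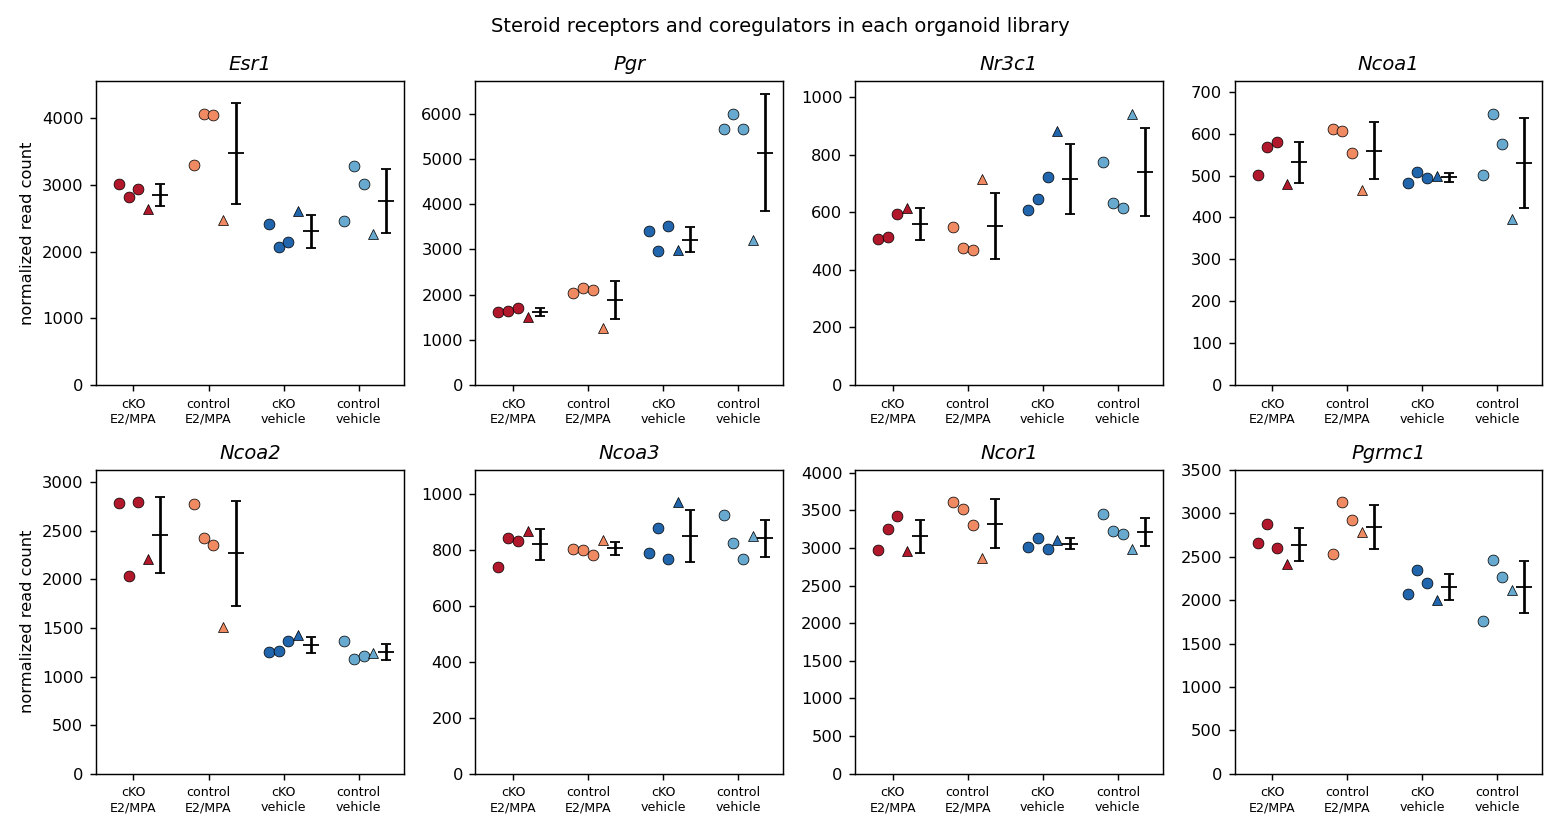
Normalized read count (vertical axis, from 0) of each of the 8 genes in each library, with groups from left to right cKO E2/MPA, control E2/MPA, cKO vehicle and control vehicle. Points are libraries, triangles are the stroma-rich libraries M16, M12, M8 and M4, and bars are the mean and SD of 4 libraries. Every E2/MPA library lies below every vehicle library for Pgr and above every vehicle library for Ncoa2, and for Pgrmc1 the same holds within each genotype.

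Pgr (ENSMUSG00000031870) encodes the progesterone receptor, the nuclear receptor that binds MPA. Its level was 1610, 1635, 1701 and 1500 normalized reads in the cKO E2/MPA libraries M13 to M16, and 2032, 2150, 2104 and 1252 in the control E2/MPA libraries M9 to M12. Under vehicle it was 3396, 2974, 3511 and 2989 in the cKO libraries M5 to M8, and 5666, 6002, 5663 and 3205 in the control libraries M1 to M4. The 8 E2/MPA libraries all lay below the 8 vehicle libraries, and the lowest values of the control groups were the stroma-rich M12 and M4. In control organoids Pgr fell to 1885 ± 424 under E2/MPA, against 5134 ± 1296 under vehicle (SD, n = 4 each), which is 36.7% of the vehicle mean. That is a log2 difference of -1.44 (SE 0.191, limma adjusted p = 0.00038). In cKO organoids it fell to 1611 ± 83.6 under E2/MPA, against 3217 ± 277 under vehicle (SD, n = 4 each), or 50.1% of the vehicle mean, a log2 difference of -0.99 (SE 0.191, limma adjusted p = 0.0085). Pgr stayed past the threshold in both genotypes under all 30 alternative settings, with adjusted p up to 0.0231 in control and 0.0347 in cKO organoids. In bulk RNA such as this, fewer cells of a type and less RNA per cell cannot be told apart.

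The genotypes were closest for Pgr under E2/MPA, at 85.5% of control in cKO organoids (log2 difference -0.19, 95% interval -0.60 to 0.21). Under vehicle the cKO mean was 62.7% of control (log2 difference -0.64, 95% interval -1.04 to -0.23). That difference had an unadjusted p of 0.00463 and a limma adjusted p of 0.779, and the groups overlapped at M4. No gene of all those tested passed for genotype under vehicle by limma (0%), while 984 had an unadjusted p under 0.05. By edgeR 0 genes passed and by DESeq2 16. Without the 4 stroma-rich libraries, the 3 remaining cKO vehicle libraries all lay below the 3 control ones, the log2 difference was -0.81, and Pgr passed (limma adjusted p = 0.00125). With those libraries left out, 14 of the 16509 tested genes passed for genotype under vehicle, against 0 with all libraries. The control library M1, with a summed stromal level of 12459, stayed in that fit. In the 12 other settings of this comparison, single libraries apart, Pgr missed the threshold. Library weights and the mean level of the stromal markers as a covariate were among them. Pgr also missed it with any single library left out (lowest limma adjusted p = 0.227). The interaction, the response in cKO minus the response in control, was 0.44 for Pgr (95% interval -0.13 to 1.02, limma adjusted p = 1).

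Where a promoter was on file for a gene that passed the test, it is printed because estrogen, progestin and glucocorticoid receptors bind known DNA motifs. The RefSeq sequences for build GRCm38.p6 span 250 bases before to 50 after a gene's start. They held entries for 5 of the 8 genes, namely Esr1, Pgr, Ncoa1, Ncor1 and Pgrmc1, and among the genes past the threshold for Pgr and Pgrmc1. Pgr is at chr9:8899583-8899882 on the plus strand, and Pgrmc1 at chrX:36597943-36598242 on the plus strand. Capitals mark the Sp1 motif GGGCGG on either strand.
Pgr: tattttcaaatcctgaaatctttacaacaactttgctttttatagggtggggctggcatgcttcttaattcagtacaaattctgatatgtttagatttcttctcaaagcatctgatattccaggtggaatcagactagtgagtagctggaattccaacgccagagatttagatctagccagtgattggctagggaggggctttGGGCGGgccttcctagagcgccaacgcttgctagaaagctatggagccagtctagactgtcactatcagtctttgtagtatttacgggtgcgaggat
Pgrmc1: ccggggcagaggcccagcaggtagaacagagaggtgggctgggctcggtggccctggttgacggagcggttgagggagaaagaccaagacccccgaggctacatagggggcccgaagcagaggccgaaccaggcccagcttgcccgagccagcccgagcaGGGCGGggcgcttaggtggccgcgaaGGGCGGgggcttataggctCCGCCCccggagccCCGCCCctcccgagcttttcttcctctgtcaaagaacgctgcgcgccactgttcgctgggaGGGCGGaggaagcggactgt
Searched on both strands, neither window held the estrogen response element, a palindrome of GGTCA and its reverse complement with 3 bases between, nor GGTCA alone, which lies inside it, nor the glucocorticoid and progesterone element ACANNNTGT. Over 32544 promoter windows of the same 300 bases, the estrogen element was in 0.0707%, GGTCA in 40.5%, ACANNNTGT in 6.83% and GGGCGG in 35.9%. The Pgr window held 1 match to GGGCGG and the Pgrmc1 window 5. Of the 7 entries of the 8 genes, 1 of the Esr1 entries held GGTCA, once. A match describes these letters only, and a window without one says nothing about binding elsewhere.

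Esr1 (ENSMUSG00000019768) encodes estrogen receptor alpha, the main receptor for E2 in the uterus. Its level was 3011, 2828, 2948 and 2634 normalized reads in cKO E2/MPA (M13 to M16), and 3304, 4073, 4047 and 2478 in control E2/MPA libraries (M9 to M12). Under vehicle it was 2409, 2067, 2146 and 2608 in cKO (M5 to M8) and 2461, 3288, 3023 and 2266 in control libraries (M1 to M4). In cKO organoids every E2/MPA library lay above every vehicle library, whereas in control organoids the stroma-rich M12 fell among the vehicle values. The log2 difference of E2/MPA to vehicle was 0.31 in cKO (SE 0.150, limma adjusted p = 0.285) and 0.32 in control organoids (SE 0.150, limma adjusted p = 0.21). In control organoids Esr1 passed without M12 (0.47, limma adjusted p = 0.0255) and without all 4 stroma-rich libraries (0.38, limma adjusted p = 0.0445). Over all tested genes, 2230 and 2210 passed in control organoids in those fits, against 1469 with all libraries. Single libraries apart, Esr1 missed the threshold in control organoids in 10 of 14 other settings, the stromal marker mean as a covariate among them. It passed there with library weights (limma adjusted p = 0.0479). Blocks of libraries 8 numbers apart, a pairing the labels do not state, also gave a call, random or fixed. Adjusted p by limma was 0.0259 and 0.0107 in control and 0.0394 and 0.0173 in cKO organoids. Those blocks called 4479 and 4586 of all tested genes in control and 3098 and 3302 in cKO organoids. The cKO mean was 82.2% of control under E2/MPA (limma adjusted p = 0.569) and 83.6% under vehicle (limma adjusted p = 0.861).

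Within each library, Pgr was also set against Esr1. Pgr had 0.565 ± 0.0202 reads per read of Esr1 in cKO E2/MPA and 0.542 ± 0.0496 in control E2/MPA libraries, against 1.41 ± 0.201 in cKO vehicle and 1.85 ± 0.364 in control vehicle libraries (SD, n = 4 each). The highest ratio under E2/MPA was 0.615 and the lowest under vehicle 1.15. This ratio of reads is a description within each library, not corrected for gene length.

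Nr3c1 (ENSMUSG00000024431) encodes the glucocorticoid receptor. Its level was 508, 515, 595 and 615 normalized reads in cKO E2/MPA (M13 to M16) and 549, 475, 469 and 716 in control E2/MPA libraries (M9 to M12). Under vehicle it was 607, 646, 721 and 883 in cKO (M5 to M8) and 774, 632, 614 and 942 in control libraries (M1 to M4). The stroma-rich library was the highest of its group in all 4 groups, and the E2/MPA and vehicle ranges overlapped in both genotypes. The log2 difference of E2/MPA to vehicle was -0.34 in cKO (SE 0.162, limma adjusted p = 0.27) and -0.42 in control organoids (SE 0.162, limma adjusted p = 0.123). With the mean level of the stromal markers as a covariate, Nr3c1 passed in cKO (-0.38, limma adjusted p = 0.00575) and in control organoids (-0.43, limma adjusted p = 0.00161). With that covariate 2606 genes of all those tested passed in cKO organoids, against 692 without it, and 3691 in control organoids, against 1469. Nr3c1 also passed in control organoids without M12 (-0.55, limma adjusted p = 0.0302). With the random and the fixed block of libraries 8 numbers apart it passed in both genotypes. Adjusted p by limma was 0.024 and 0.00251 in cKO and 0.00535 and 0.000466 in control organoids. Genotype differences were 0.03 under E2/MPA and -0.05 under vehicle on the log2 scale.

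**Figure D2:**
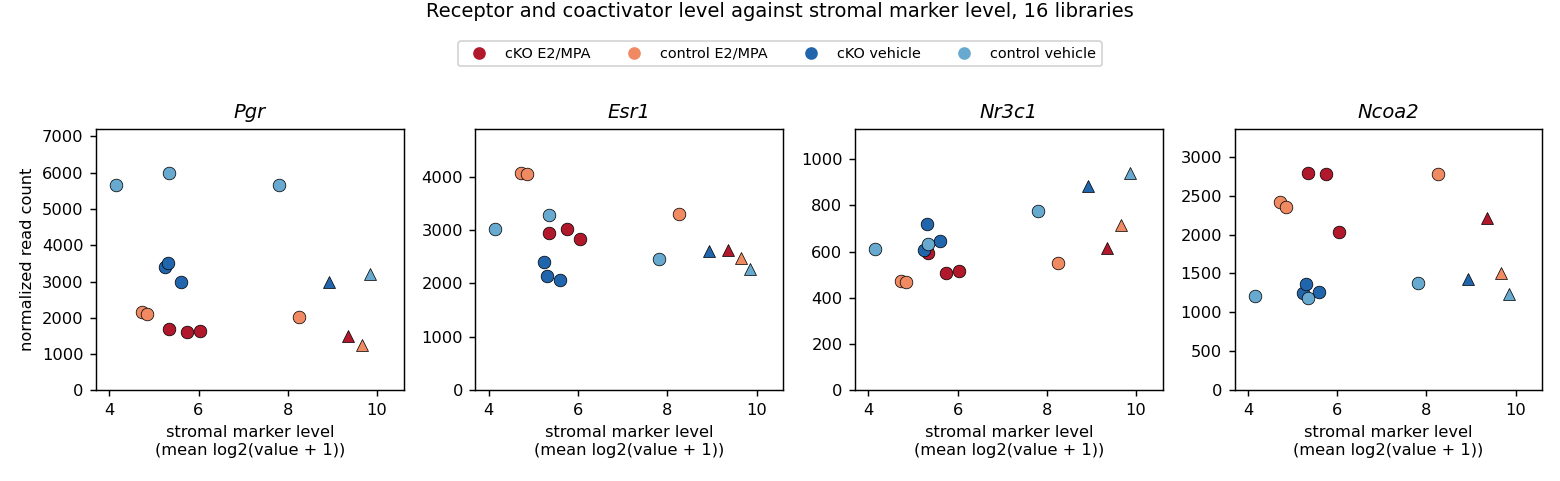
Normalized read count (vertical axis, from 0) against the mean log2(value + 1) of 12 stromal markers (horizontal axis) in 16 libraries, for Pgr, Esr1, Nr3c1 and Ncoa2. Colours are the 4 groups and triangles the stroma-rich libraries, which have the highest Nr3c1 level of each group.

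After each group's mean was subtracted, the correlation of a gene's log2 level with the stromal marker mean over the 16 libraries was 0.893 for Nr3c1 and 0.644 for Ncoa3. It was -0.737 for Pgr, -0.674 for Ncoa1, -0.664 for Esr1, -0.612 for Pgrmc1, -0.395 for Ncor1 and -0.246 for Ncoa2. These are descriptions without a test, over libraries that share processing and that include the 4 stroma-rich ones. The part of stromal RNA in the levels themselves was not tested. The same subtraction gave a correlation of -0.776 between Pgr and Nr3c1, of 0.838 between Pgr and Ncoa1 and of 0.755 between Esr1 and Pgr.

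Ncoa2 (ENSMUSG00000005886) encodes SRC-2, a coactivator of steroid receptors. Its level was 2783, 2038, 2795 and 2209 normalized reads in cKO E2/MPA (M13 to M16) and 2779, 2423, 2359 and 1512 in control E2/MPA libraries (M9 to M12). Under vehicle it was 1254, 1265, 1369 and 1428 in cKO (M5 to M8) and 1372, 1181, 1214 and 1240 in control libraries (M1 to M4). Every E2/MPA library lay above all 8 vehicle libraries, with the stroma-rich M12 the nearest to them. Ncoa2 rose in cKO organoids to 2456 ± 391 under E2/MPA, against 1329 ± 83.8 under vehicle (SD, n = 4 each), 1.83-fold on the log2(value + 1) scale (log2 difference 0.87, SE 0.153, limma adjusted p = 0.00533). It rose in control organoids to 2268 ± 537 under E2/MPA, against 1252 ± 83.6 under vehicle (SD, n = 4 each), or 1.77-fold (log2 difference 0.82, SE 0.153, limma adjusted p = 0.00423). It stayed past the threshold under all 30 alternative settings, with adjusted p up to 0.0232 in cKO and 0.0465 in control organoids. The interaction was 0.05 (95% interval -0.41 to 0.51), and the genotype differences were 0.14 under E2/MPA and 0.09 under vehicle, all with limma adjusted p above the threshold.

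The other SRC genes gave no call. Ncoa1 (ENSMUSG00000020647), which encodes SRC-1, ranged from 481 to 579 normalized reads in cKO E2/MPA, 465 to 612 in control E2/MPA, 482 to 508 in cKO vehicle and 396 to 648 in control vehicle libraries. Ncoa3 (ENSMUSG00000027678), which encodes SRC-3, ranged from 741 to 868 in cKO E2/MPA, 783 to 838 in control E2/MPA, 769 to 971 in cKO vehicle and 769 to 926 in control vehicle libraries. Their ranges overlapped in every comparison. The log2 difference of E2/MPA to vehicle was 0.10 in cKO (95% interval -0.18 to 0.37) and 0.09 in control organoids (95% interval -0.18 to 0.37) for Ncoa1. For Ncoa3 it was -0.05 in cKO (95% interval -0.22 to 0.12) and -0.06 in control organoids (95% interval -0.23 to 0.11). Among the 3 SRC genes, Ncoa2 made up 48.4% ± 4.86 of the reads per kilobase of exon in cKO E2/MPA and 45.9% ± 5.68 in control E2/MPA, against 33.9% ± 1.62 in cKO vehicle and 32.2% ± 1.93 in control vehicle libraries (SD, n = 4 each). Ncoa3 made up 32.4% in cKO E2/MPA and 33.2% in control E2/MPA, and 43% in both vehicle groups.

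Ncor1 (ENSMUSG00000018501) encodes the corepressor that carries the histone deacetylase HDAC3. Its level ranged from 2958 to 3419 normalized reads in cKO E2/MPA, 2872 to 3606 in control E2/MPA, 2988 to 3129 in cKO vehicle and 2983 to 3447 in control vehicle libraries. The ranges overlapped throughout. The log2 difference of E2/MPA to vehicle was 0.04 in cKO (95% interval -0.12 to 0.20, limma adjusted p = 0.83) and 0.05 in control organoids (95% interval -0.11 to 0.21, limma adjusted p = 0.762). The summed SRC genes set against Ncor1, both per kilobase, gave a log2 ratio of 0.39 ± 0.104 in cKO E2/MPA and 0.27 ± 0.0522 in control E2/MPA, against 0.07 ± 0.0693 in cKO vehicle and -0.01 ± 0.0264 in control vehicle libraries (SD, n = 4 each). Ncoa2 was the only gene in this ratio that passed for E2/MPA, so the ratio is not a result apart from Ncoa2. It carries no test.

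Pgrmc1 (ENSMUSG00000006373) encodes a heme-binding membrane protein linked to progesterone signalling that is not a nuclear receptor. Its level was 2661, 2881, 2602 and 2414 normalized reads in cKO E2/MPA (M13 to M16) and 2528, 3128, 2926 and 2783 in control E2/MPA libraries (M9 to M12). Under vehicle it was 2069, 2344, 2201 and 1999 in cKO (M5 to M8) and 1757, 2462, 2268 and 2121 in control libraries (M1 to M4). In each genotype every E2/MPA library lay above every vehicle library. In cKO organoids the mean was 2640 ± 193 under E2/MPA and 2153 ± 152 under vehicle (SD, n = 4 each), a log2 difference of 0.29 (SE 0.0987) that missed the threshold (limma adjusted p = 0.115). It passed there with the stromal marker mean as a covariate (limma adjusted p = 0.017). In control organoids Pgrmc1 rose to 2841 ± 252 under E2/MPA, against 2152 ± 298 under vehicle (SD, n = 4 each), with a log2 difference of 0.41 (SE 0.0987, limma adjusted p = 0.019). The call in control organoids was lost without M1 (limma adjusted p = 0.0575), M10 (0.0715) or M11 (0.059), and with only the 2 compared groups in the fit (0.104). The interaction was -0.11 (95% interval -0.41 to 0.18, limma adjusted p = 1).

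**Figure D3:**
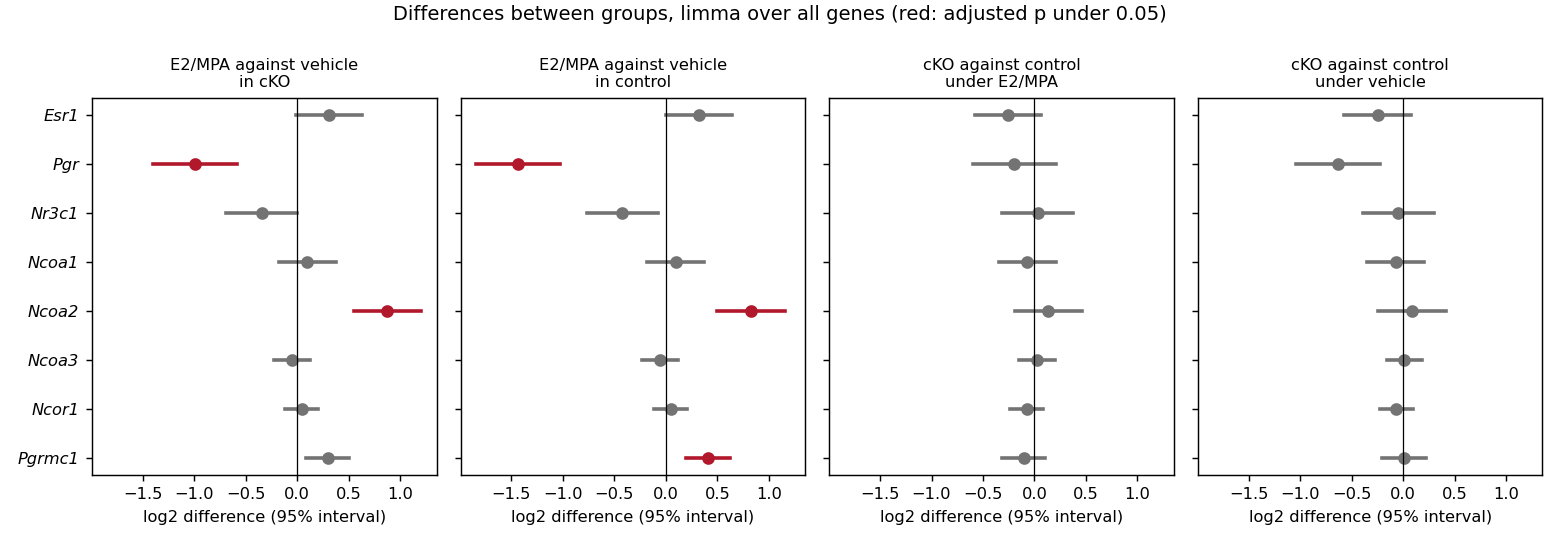
Log2 differences (points) with 95% intervals (lines) of the 8 genes in 4 comparisons, from left to right E2/MPA against vehicle in cKO and in control, and cKO against control under E2/MPA and under vehicle. Red marks an adjusted p under 0.05, which Pgr and Ncoa2 reach in both genotypes and Pgrmc1 in control organoids.

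Groups that do not overlap were counted for the 8 genes as well. Between E2/MPA and vehicle 4 of the 8 genes did not overlap in cKO organoids, against 13.8% of all tested genes, and 3 of 8 in control organoids, against 12.1%. Between cKO and control none of the 8 was free of overlap under E2/MPA, against 6.17% of all tested genes, or under vehicle, against 3.01%. The median log2 difference of the 8 genes was 0.07 in cKO and 0.07 in control organoids for E2/MPA against vehicle, while the median of all tested genes was near 0 in both. Under E2/MPA 0.00606% of all tested genes passed for genotype and for the interaction 0%, with 1794 and 309 at an unadjusted p under 0.05. By edgeR and by DESeq2 the interaction also gave 0 genes.

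Levels can be set between genes only per length. Reads per kilobase were taken from GENCODE M21 exon lengths, which belong to GRCm38, while the reads were placed on GRCm39. Each length joins all annotated exons of a gene, from 1.86 kb for Pgrmc1 to 13.7 kb for Esr1 and 15.6 kb for Ncoa2. Where a shorter transcript is the one expressed, such a length understates the level. The order of the genes and the shares and ratios per kilobase above depend on it. Pgrmc1 was the highest of the 8 genes in every group, with 1421 ± 104 reads per kb in cKO E2/MPA, 1530 ± 136 in control E2/MPA, 1160 ± 82 in cKO vehicle and 1159 ± 161 in control vehicle libraries (SD, n = 4 each). Pgr stood 4th under E2/MPA in both genotypes, at 189 ± 9.78 in cKO and 221 ± 49.6 in control libraries, and 2nd under vehicle, at 377 ± 32.4 in cKO and 601 ± 152 in control libraries. Ncoa2 stood 5th under E2/MPA, at 157 ± 25 in cKO and 145 ± 34.3 in control libraries, and 7th under vehicle, at 85 ± 5.36 in cKO and 80 ± 5.35 in control libraries. Ncoa1 was the lowest of the 8 in every group, at 57.8 to 65.3 reads per kb on average.

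Some neighbours in that order had library ranges that overlapped. Under E2/MPA the library ranges of Esr1 and Pgr overlapped in both genotypes, as did those of Pgr and Ncoa2 and those of Nr3c1 and Ncoa1. Within each library, though, Esr1 lay above Pgr and Pgr above Ncoa2 in 4 of 4 libraries of both E2/MPA groups, and Nr3c1 lay above Ncoa1 in 4 of 4 cKO and 2 of 4 control libraries. Ncor1 and Esr1 overlapped in control E2/MPA and in control vehicle libraries, and not in cKO E2/MPA or cKO vehicle libraries. Ncor1 lay above Esr1 in 2 of 4 control E2/MPA and 4 of 4 control vehicle libraries. Under vehicle Ncoa3 and Nr3c1 overlapped in both genotypes, as did Nr3c1 and Ncoa2, whereas Pgr lay above Ncor1 in all 8 libraries.

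**Figure D4:**
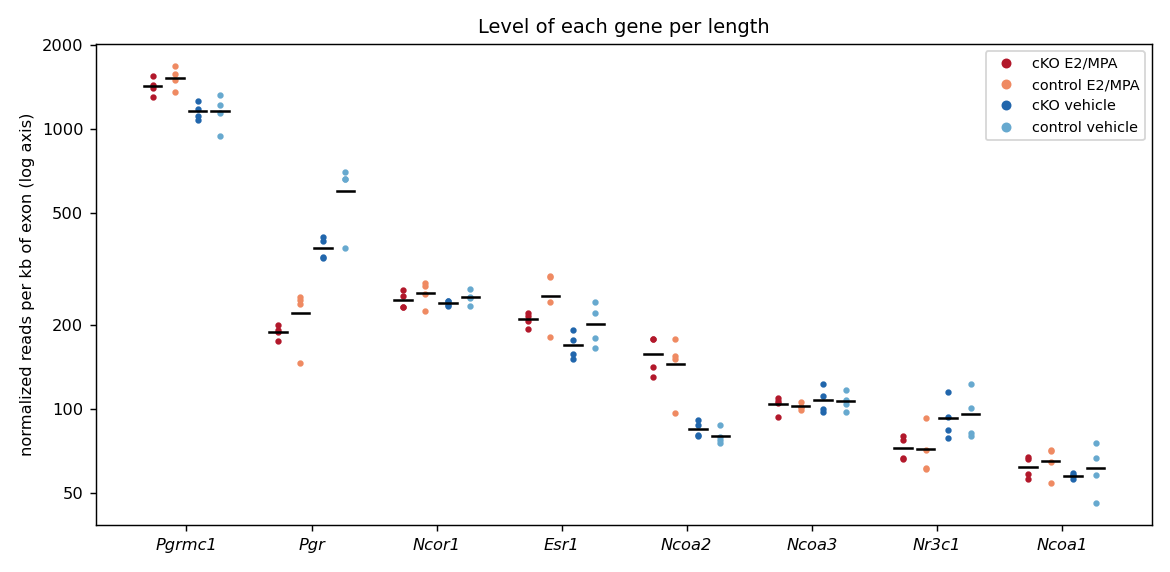
Normalized reads per kb of exon (vertical log axis) of the 8 genes, ordered by their mean over 16 libraries. Points are libraries, black lines group means, and the groups within a gene run from left to right as cKO E2/MPA, control E2/MPA, cKO vehicle and control vehicle. Pgrmc1 is the highest gene in every group and Ncoa1 the lowest.

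The 11 other steroid receptors on the list, membrane receptors and estrogen-related receptors included, had 8 genes tested. Esr2, Esrrb and Esrrg were not analysed here. In cKO organoids 0 of the 8 passed for E2/MPA (median log2 difference -0.35) and in control organoids 1 fell (median -0.55), while the medians of all tested genes were near 0. The gene that fell was Nr3c2, the mineralocorticoid receptor, at 14.8 ± 2.61 normalized reads under E2/MPA against 57.5 ± 20.2 under vehicle in control organoids (log2 difference -1.84, SE 0.260, limma adjusted p = 0.000605). In cKO organoids Nr3c2 was at 37.1 ± 6.54 under E2/MPA and 75.1 ± 21.2 under vehicle (log2 difference -0.97, SE 0.260, limma adjusted p = 0.0505), with no overlap. There Nr3c2 passed in 10 of 14 other settings, edgeR (adjusted p = 0.0467) and DESeq2 (0.0139) among them, and without M1, M2 or M6. The interaction for Nr3c2 was 0.88 (unadjusted p = 0.031, limma adjusted p = 1).

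Of the 24 other coactivators, 0 passed for E2/MPA in cKO and 2 fell in control organoids (median log2 difference -0.06 in cKO and -0.04 in control). They were Kat2a, a histone acetyltransferase, at 566 ± 50.4 under E2/MPA against 716 ± 18 under vehicle (log2 difference -0.34, limma adjusted p = 0.0153), and Prmt1, an arginine methyltransferase, at 1430 ± 188 under E2/MPA against 1841 ± 146 under vehicle (log2 difference -0.37, limma adjusted p = 0.038). The call for Kat2a was lost without M10 (adjusted p = 0.0544) or M11 (0.0589), and that for Prmt1 without any of M1, M3, M4, M5, M9, M10 and M11, with adjusted p up to 0.134. In cKO organoids the log2 difference was -0.30 for Kat2a (limma adjusted p = 0.0509) and -0.33 for Prmt1 (limma adjusted p = 0.0872). Of 14 other settings, Kat2a passed there in 9, edgeR (adjusted p = 0.0429) among them, and Prmt1 in 6. Of the 15 other corepressors 0 passed in either genotype (median log2 difference -0.08 in cKO and -0.02 in control). Tbl1x, a subunit of the NCOR complex, was at 2784 ± 279 in cKO E2/MPA and 2500 ± 212 in control E2/MPA, against 3057 ± 229 in cKO vehicle and 2955 ± 274 in control vehicle libraries.

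Of the 15 chaperones of steroid receptors, 2 rose and 0 fell under E2/MPA in cKO organoids, and 2 rose and 1 fell in control organoids (median log2 difference 0.06 in cKO and -0.02 in control). Fkbp5, a co-chaperone that lowers glucocorticoid receptor affinity for its ligand and is itself a target of that receptor, rose to 887 ± 97.3 under E2/MPA in cKO, against 117 ± 47.8 under vehicle (log2 difference 2.99, limma adjusted p = 0.000129). In control organoids it rose to 1233 ± 267 under E2/MPA, against 160 ± 91.7 under vehicle (log2 difference 3.07, limma adjusted p = 5.75e-05). St13, which encodes the HSP70-interacting protein Hip, rose by 0.32 in cKO (limma adjusted p = 0.00337) and 0.29 in control organoids (limma adjusted p = 0.00394) on the log2 scale. Ppid, a cyclophilin of the receptor complex, fell in control organoids to 912 ± 68.4 under E2/MPA, against 1144 ± 92.1 under vehicle (limma adjusted p = 0.0395), and lost its call without any of M1, M2, M3, M6, M9, M10 and M11.

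Among 10 tested of 12 transcription factors and cofactors that work with these receptors, 1 rose in cKO, and 1 rose and 1 fell in control organoids. The gene that rose in both was Greb1, an estrogen-induced cofactor of estrogen receptor alpha, at 5513 ± 1110 in cKO and 6479 ± 1620 in control organoids under E2/MPA, against 2597 ± 255 in cKO and 2691 ± 366 in control organoids under vehicle. Its log2 difference was 1.06 in cKO (limma adjusted p = 0.00579) and 1.24 in control organoids (limma adjusted p = 0.00115). Foxo1, a forkhead factor and partner of the progesterone receptor, fell in control organoids to 2499 ± 249 under E2/MPA, against 3538 ± 443 under vehicle (log2 difference -0.50, limma adjusted p = 0.0167), and lost its call without M1, M10 or M11. For genotype and for the interaction, 0 genes of these 5 lists passed. The share of all tested genes that passed for E2/MPA was 4.19% in cKO and 8.9% in control organoids.

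**Figure D5:**
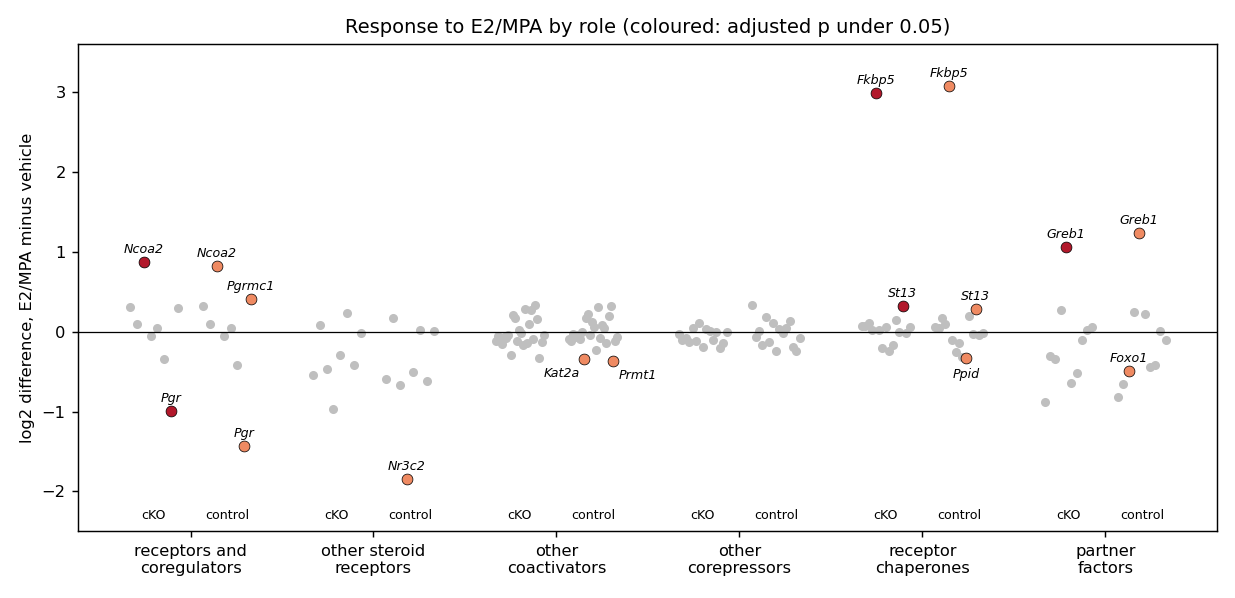
Log2 difference of E2/MPA minus vehicle (vertical axis) for each tested gene of 6 groups of genes, cKO left and control right within each group. Grey points missed the threshold and coloured points, named beside them, had a limma adjusted p under 0.05. Ncoa2 and Pgr are coloured in both genotypes, as are Fkbp5, St13 and Greb1 in other groups.

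Known targets of these receptors were counted in the same libraries. Of 10 estrogen targets, Pgr and Greb1 included, 2 rose and 1 fell in cKO and 3 rose and 2 fell in control organoids. Lcn2 rose in both genotypes, and Wnt4 rose in control organoids. Lcn2 lost its call in control organoids in 9 of 30 other settings, with adjusted p up to 0.162, among them edgeR and leaving out M1, M4, M9, M10 or M11. Of 10 tested of 12 progestin targets, Ihh rose and Ptch1 fell in cKO organoids, and Ihh and Alox15 rose and Ptch1 fell in control organoids. The call for Ihh in cKO organoids was lost without M5, M7 or M13. Of 12 glucocorticoid targets 7 rose and 0 fell in each genotype, with a median log2 difference of 1.24 in cKO and 1.54 in control organoids, and those that rose in both were Zbtb16, Sult1a1, Tsc22d3, Fkbp5, Mt1, Mt2 and Per1. Of all tested genes, 2.71% rose and 1.48% fell in cKO organoids, and 5.39% rose and 3.51% fell in control organoids. A place on the glucocorticoid list does not exclude regulation by the progesterone receptor. Which receptor acted on the targets that passed was not tested. The lists overlap in Pgr, Greb1 and Fkbp5, and 0 genes of the 3 lists passed for genotype or for the interaction.

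The genes most like each of the 8 were taken by Pearson correlation of log2 levels over 16 libraries after group means were subtracted, among 11136 genes with a mean of at least 50. High values were common, and 5% of those genes reached 0.764 or more with Pgr, 0.838 with Nr3c1 and 0.512 with Ncoa2. Pgr was most like Vamp1 (0.957), Itga6 (0.955) and Osgin1 (0.926). For Esr1 these were Tmprss2 (0.936), Ak3 (0.916) and Ddx19b (0.908). Nr3c1 was closest to Cplane1 (0.956), Sp3 (0.956) and Ints6l (0.955). The coactivator Ncoa2 was closest to Rexo4 (0.879), Rad21 (0.845) and Mlph (0.844), Ncoa1 to Rev3l (0.918), Zfp715 (0.915) and Resf1 (0.911), and Ncoa3 to Rin1 (0.902), Dsg2 (0.9) and Tdp1 (0.892). Ncor1 was closest to Insr (0.914), Nfat5 (0.892) and Hivep1 (0.888), and Pgrmc1 to Hspe1 (0.924), Prorsd1 (0.921) and Setd7 (0.907). These values describe the libraries and carry no test.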

How the data were processed

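Per the submitters' files, 1 table holds all 16 libraries (23306 genes). Its deposited values are a signal: each library's gene counts over that library's size factor. HISAT2, featureCounts, DESeq2 and build GRCm39 are named in the submitters' processing notes, with no version, and libraries were TruSeq, per the labels' protocols. Whether counting used strand is not stated in those sources. Multiplied back, 100% of values were whole reads within 0.01 read. Symbols came from GENCODE M21 for 22484 identifiers, and the 822 without one held 1.83% of reads.

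Values were tested as log2(value + 1), which understates changes of low genes, with limma 3.58.1 (R 4.3.3), a mean per group, a mean-variance trend, all 16 libraries, and Benjamini-Hochberg adjustment over 16509 genes. The fit was tested on simulated data with changed genes of known size. Of 1.5-fold changes, 12% (interaction) to 46% (E2/MPA in cKO) were called. Of 2-fold changes, 54% (interaction) to 84% (genotype under vehicle) were called. False calls were 2 to 13 per comparison. Small differences, those of the interaction above all, could thus be missed. Recovered reads were also tested with edgeR 4.0.16 (1497 genes called for E2/MPA in control, 678 in cKO organoids) and DESeq2 1.42.0. In all, 14 settings were tried besides leaving out each library, covering pseudocount, filter, scaling, test, libraries fitted, weights, blocks and the stromal covariate. Replicates all differed by more than counting noise (chi-square over its degrees of freedom at least 6.96).

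The named genes are the 8 genes, up to 4 genes of each list with an adjusted p under 0.05 and the lowest adjusted p under E2/MPA (where none passed, the 2 with the highest mean), and the 3 genes most correlated with each of the 8. Named markers are not printed, and 1 other gene that the rule names is not reported here. The genes and lists were chosen with earlier results of these data known. The labels give no shared replicate numbers across groups.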

Additional observations from a re-analysis of the deposited data

Results flagged for a closer look

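For Pgr, 1 library stood apart from the other 3 of its group in each control group, by Dixon's test for a single outlying value at the 95% level. Under E2/MPA the control library M12 had 1252 normalized reads, against 2032 to 2150 in M9 to M11. Under vehicle the control library M4 had 3205, against 5663 to 6002 in M1 to M3. These were 2 of the 32 sets of 4 values (8 genes in 4 groups) examined, and chance flags about 1 in 20. M12 and M4 had the highest stromal marker mean of their groups, 9.66 and 9.85 on the log2 scale. The immune marker mean was also highest there, 7.44 in M12 and 7.21 in M4, against 5.06 to 5.93 in the other 14 libraries, as was the smooth muscle mean, 5.75 in M12 and 6.59 in M4. M9 and M1, with the next highest means of those groups (8.26 and 7.80), had Pgr levels of 2032 and 5666. The epithelial marker mean was the highest of its group in these 2 libraries as well. It was 13.6 in M12, against 13.38 to 13.43 in M9 to M11, and 13.63 in M4, against 13.26 to 13.39 in M1 to M3. The part of stromal, smooth muscle and immune cells in the low Pgr values was not tested.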

How the results depend on the processing

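Over the 14 settings besides single libraries left out, the 40 differences of the 8 genes (8 genes, 5 comparisons) kept direction and side of the threshold in 501 of 536 values, passed in 19 more, missed in 1 and changed sign in 15. For E2/MPA, 5 of the 8 genes passed in control organoids with library weights, without M4, M8, M12 and M16, and without M12 alone (main 3, leaving out single libraries 2 to 5), and 4 passed in cKO organoids with the stromal marker mean as a covariate (main 2). The calls over all 16509 genes rose too, to 2549, 2210 and 2230 in control, against 1469, and to 2606 in cKO organoids, against 692. Under vehicle 1 gene, Pgr, passed for genotype without M4, M8, M12 and M16 (main 0), as did 14 of all genes (main 0). Libraries 8 numbers apart deviated together (correlation 0.386 to 0.746), a hint from the data that the labels do not state. With them as a random or a fixed replicate block, 5 genes passed in cKO and 5 in control organoids, while 3098 and 3302 of all genes passed in cKO and 4479 and 4586 in control organoids. The random block called Nr3c1 (adjusted p = 0.024 in cKO, 0.00535 in control), Esr1 (0.0394 in cKO, 0.0259 in control) and Pgrmc1 in cKO (0.00455). Over the 8 such pairs, Nr3c1 was lower and Esr1 higher under E2/MPA in all 8.

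The sign changes were of differences near 0. For genotype under vehicle they were Pgrmc1 by quantile normalization (-0.0011), weights (-0.025) and covariate (-0.011), Nr3c1 by weights (0.010) and covariate (0.0061), and Ncoa3 without the 4 libraries (-0.047). For genotype under E2/MPA it was Ncoa2 without the 4 (-0.0011), and for E2/MPA in cKO Ncor1 by quantile normalization (-0.028). For the interaction they were Ncoa1 (-0.0083) and Ncoa3 (-0.0019) by upper-quartile scaling, Ncoa3 by DESeq2 (-0.00032), Ncoa2 by weights (-0.029) and without the 4 (-0.049), and Esr1 by covariate (0.0088) and without the 4 (0.026). The causes were not tested.

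Single libraries left out gave a range across 0 in 15 differences. For E2/MPA these were Ncoa1 in control (-0.038 to 0.20) and Ncoa3 in cKO (-0.096 to 0.016). For genotype under E2/MPA they were Ncoa2 (-0.048 to 0.25), Ncoa3 (-0.0050 to 0.071) and Nr3c1 (-0.039 to 0.16). For genotype under vehicle they were Ncoa1 (-0.20 to 0.032), Ncoa3 (-0.052 to 0.060), Nr3c1 (-0.15 to 0.078) and Pgrmc1 (-0.085 to 0.077). For the interaction they were Esr1 (-0.16 to 0.080), Ncoa1 (-0.10 to 0.13), Ncoa2 (-0.13 to 0.16), Ncoa3 (-0.038 to 0.074), Ncor1 (-0.074 to 0.036) and Nr3c1 (-0.046 to 0.21).

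Over all tested genes, E2/MPA called 484 (only the compared groups) to 4586 (fixed replicate block) genes in control organoids, against 1469, and 591 (no filter) to 3302 (fixed replicate block) in cKO organoids, against 692. For genotype under E2/MPA, weights gave 597, the covariate 401 and DESeq2 185, against 1. The higher share of called genes was 48.5% by quantile normalization in control organoids, against 60.6%, and 52.1% by upper-quartile scaling in cKO organoids, against 64.6%. Read depth of the 8 genes was 421 to 6920 reads per library.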
